A study of Mus musculus with 8 samples.

Results

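The RNA of differentiated MPC-5 podocytes, taken from the input extracts that ran beside a ribonucleoprotein pulldown, was measured on 4 microarrays. These 4 input arrays were chosen by their titles, which number them as inputs 1 to 4, from the 8 arrays of the study. The other 4 arrays carried RNA eluted from IgG beads and were not used, so that what follows describes the input extracts of these cells. MPC-5 is a conditionally immortalized mouse podocyte line that carries a temperature-sensitive SV40 large T antigen under an interferon-inducible promoter. The cells were grown at 33°C with interferon gamma and were then left to differentiate for 14 days at 37°C without it. All 4 inputs came from cells that stably expressed WT1(+KTS), the splice form of the Wilms tumour protein with the amino acids KTS, fused to a TAP tag made of FLAG epitopes and IgG-binding domains and driven by a cytomegalovirus promoter. No array of unmodified cells was used here. Input extracts were held for as long as the pulldowns but without IgG beads, and 650 ng of RNA was labelled for each array. No source used here says if the 4 extracts were made from separate cultures. The spread reported below may therefore be partly technical, and it is that of 1 transfected line.

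Podocytes are the epithelial cells that cover the outside of the glomerular capillaries. Their interlocking foot processes are built on contractile actin bundles, are bridged by the slit diaphragm, a specialised cell junction around the adhesion protein nephrin, and are anchored by integrins to a basement membrane of laminin and type IV collagen. In culture, podocyte lines are known to keep their actin cytoskeleton and to lose much of the slit diaphragm, and the differentiated podocyte of the kidney has left the cell cycle.

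The deposited values are log2 signals of 46643 probesets. They are given here as signals, taken back from log2, and a mean signal is the back-transformed mean of the 4 log2 values with its SD on the log2 scale (n = 4 throughout). The median signal was 84.3, 80.3, 76.4 and 64.9 in inputs 1 to 4, and between 28.2% and 36.6% of probesets reached a signal of 100. Because probes differ in how well they bind their targets, an order of genes by signal is an order of probes and not of mRNA copies, and a signal under 100 does not show that an mRNA was absent. Eef1a1 and Actg1, which encode a translation factor and an actin that dividing cells carry in abundance, illustrate this with mean signals of 181 and 102. Inputs 3 and 4 resembled each other most, with a Pearson correlation of 0.998 over the probesets above the threshold, followed by inputs 1 and 2 with 0.991, while the 4 pairs across lay between 0.971 and 0.975. The first principal component held 76.6% of the variance of these probesets and separated inputs 1 and 2 from inputs 3 and 4. The labels give no batch, culture or date that goes with this split, and its cause was not tested.

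A probeset was counted as above the threshold when 3 or 4 of the inputs gave a signal of 100 or more, which held for 14472 of 46643 probesets (31.0%). A gene was represented by its probeset of highest mean signal, and 8880 of 19406 annotated genes (45.8%) were above the threshold. This share is the background against which the gene lists below are to be read. Most genes were clear cases, since 8224 reached 100 on all 4 inputs and 8998 on none, but 1556 genes had a mean signal between 90 and 110, and 409 of these counted as above. Of the genes above, 3213 had a mean signal of at least 1000 and the 30 brightest one of at least 28863. Below the threshold the values mostly followed the array, since input 4 gave the lowest signal for 93.1% of the genes that stayed under 100 on every input.

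**Figure D1:**
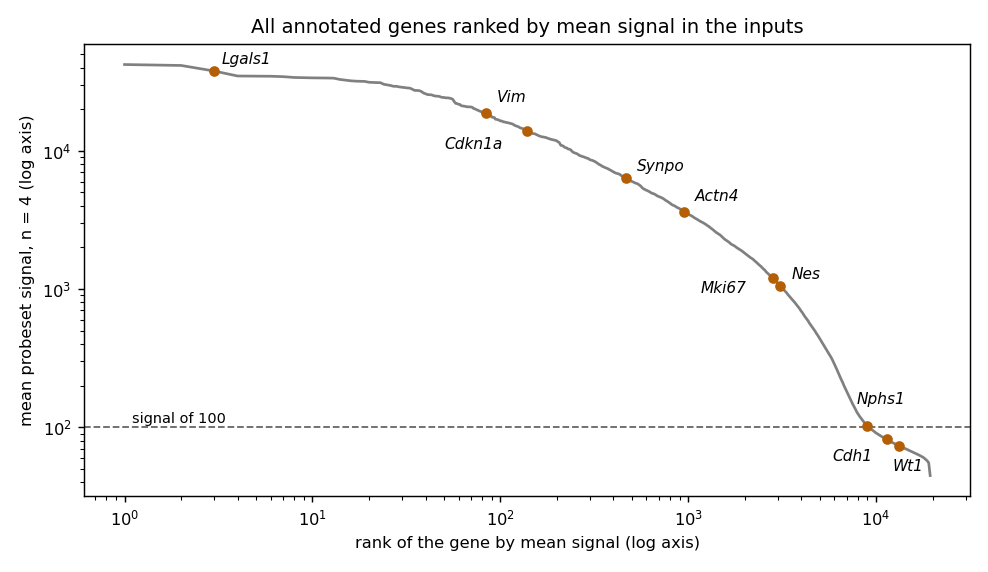
Mean signal of each annotated gene over the 4 inputs (log axis) against its rank (log axis), with 10 genes marked and the threshold dashed. Vimentin ranked at 84 and synaptopodin at 466, whereas nephrin lay at the threshold and Wt1 and Cdh1 under it.

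Ribosomal proteins, the building blocks of the ribosome, took 13 of the 30 highest places and 38 of the 100 highest, although their 74 genes make up 0.381% of those measured. Eef1g, a subunit of translation elongation factor 1, was second with a mean signal of 41520.2 (SD 0.07), and the RNA-binding protein Ybx1 was at 34445. Histone H2A genes held 6 of the 30 highest places, led by H2ac10 at 42159.6, but their sequences are nearly identical and which gene gave the signal is uncertain. Lgals1, the beta-galactoside-binding lectin galectin 1, was the third brightest gene with signals of 38405, 42023, 36278 and 35008 in inputs 1 to 4. S100a6, a calcium-binding protein of spreading cells, stood at 29346 and Tuba1b, an alpha tubulin, at 32884. Metallothionein 1 (Mt1, 31196), the chaperone Hspa8 (30335), the ATP synthase subunit Atp5b (29318) and mitochondrially encoded cytochrome b (CYTB, 28863) were also among the first 30, as were the common reference genes Gapdh (33584) and Ppia (30053). The values of the 30 brightest genes differed little between arrays, with SDs from 0.03 for Rps29 to 0.19 for H2ac11.

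Of the 6 podocyte markers, 4 were far above the threshold and 2 stood at it or under it. Vimentin (Vim), the intermediate filament protein of mesenchymal cells and podocytes, gave signals of 22683, 22487, 16376 and 14784 in inputs 1 to 4, which placed it at rank 84 of 19406. Synaptopodin (Synpo), which stabilises the actin bundles of differentiated foot processes, gave 9776, 10630.3, 4352 and 3605. Inputs 1 and 2 were thus more than 2-fold above inputs 3 and 4 for Synpo, with no overlap, while Vim differed by 1.53-fold between its highest and lowest input. Alpha-actinin 4 (Actn4), an actin crosslinker mutated in inherited glomerulosclerosis, gave 4096, 3792, 4025 and 2774. Nestin (Nes), an intermediate filament protein that mature podocytes keep, gave 1122, 1255, 911 and 953, and the 4 values lay within 1.38-fold of each other. These are bulk extracts, in which fewer cells that express a gene and less of its RNA per cell cannot be told apart.

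Nephrin (Nphs1), the adhesion protein that spans the slit, gave 107, 104, 114 and 86.2, and so passed the threshold on 3 inputs by a few units of signal while input 4 fell under it. With median centring or quantile normalization Nphs1 did not pass. The transcription factor Wt1, which maintains the podocyte state, gave 87.0, 86.8, 73.7 and 51.5 with its brighter probeset of 2 and was under 100 on every input. Input 4 was lowest for both, as it was for most dim probesets. The cells carried the tagged WT1(+KTS) construct, and no source used here says if the Wt1 probes lie in a stretch that it contains. The endogenous and the tagged transcript were therefore not told apart.

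Across the wider podocyte list, 40 of 62 genes (64.5%, against 45.8% of all genes) were above the threshold. All 13 genes of the actin cytoskeleton were. Beside Vim, Synpo, Actn4 and Nes they comprised non-muscle myosin IIA (Myh9, mean signal 10484, SD 0.17), the membrane-actin linker ezrin (Ezr, 3816, SD 0.54), anillin (Anln, 7574), the class I myosin Myo1e (1041), the formin Inf2 (689.9), drebrin (Dbn1, 316), Pdlim2 (288) and utrophin (Utrn, 207). The last of the 13, Arhgap24, a Rac1-inactivating protein that is induced as podocytes differentiate, was the most uneven podocyte gene, with signals of 2881, 3225, 713 and 555. Every value of inputs 1 and 2 was at least 4 times every value of inputs 3 and 4. Its 3 other probesets lay under the threshold. The actin cytoskeleton genes were listed with earlier results of these data known. The study had already reported Actn4, Myh9, Nes, Dbn1, Myo1e and Utrn among its enriched transcripts. That all 13 passed is therefore not an independent result.

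Of 13 genes measured from the slit diaphragm list, 7 were above the threshold (53.8%, against 45.8% of all genes). The list was drawn broadly and includes podocalyxin, which is not part of the junction itself. Only the adaptor Nck2, which links nephrin to actin, exceeded 1000 (mean 1707, SD 0.23). Podocalyxin (Podxl), the sialoprotein that keeps foot processes apart, gave 705, 590.3, 697 and 678, a narrow spread. The polarity protein Pard3 (219), the junction scaffolds Tjp1 (144) and Magi1 (106) and the calcium channel Trpc6 (129) were above as well. Cd2ap, an adaptor of nephrin, gave 91.6, 76.7, 78.4 and 76.1, and the nephrin relatives Kirrel2 (67.0) and Kirrel3 (74.9), the adaptor Nck1 (68.7) and the receptor phosphatase Ptpro (64.8) were also under 100 on every input. Of the transcription factors of the podocyte lineage, Zhx2 (267), Foxd1 (167) and, by a few units, Lmx1b (104, not above with median centring or quantile normalization) were above, whereas Tcf21 (62.3), Foxc1 (54.8), Foxc2 (55.6) and Dach1 (73.6) were not. Of the 69 listed podocyte genes, 7 were not matched to a probeset and are not analysed here.

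Genes that attach podocytes to their basement membrane were bright. Integrin alpha 3 (Itga3) and beta 1 (Itgb1), which pair to form the laminin receptor of the foot process, gave 2781, 3121, 2008 and 1707 and 14418, 16104, 10544 and 9363. Both were higher in inputs 1 and 2 than in inputs 3 and 4. The tetraspanin Cd151, a partner of this integrin, had a mean signal of 3925 (SD 0.28), and the matrix receptor dystroglycan (Dag1) one of 3594 (SD 0.46). Agrin (Agrn), the main heparan sulfate proteoglycan of the glomerular basement membrane, reached 9739.8 (SD 0.42). All 3 chains of laminin 521, the laminin of the mature glomerulus, were above the threshold, with 677 for Lama5, 1125 for Lamb2 and 1571 for Lamc1 and SDs of 0.15, 0.14 and 0.19. The collagen chains that podocytes secrete in the mature membrane were not: Col4a3 gave 75.9, 85.8, 75.8 and 67.1, Col4a4 77.3, 67.9, 72.4 and 56.8 and Col4a5 93.4, 98.5, 66.1 and 60.5. Of 17 signalling and secreted genes 9 were above (52.9%, near the 45.8% of all genes). Among them were the semaphorin mediator Dpysl2 (6238), ephrin B1 (Efnb1, 1064, SD 0.52), the phospholipase A2 receptor Pla2r1 (781) and the cell cycle inhibitor Cdkn1c (1224, SD 0.49). Vegfa, through which podocytes sustain the capillary endothelium, gave 569.7, 1014, 1539 and 1470.0, with input 1 well under the others. The glucocorticoid receptor Nr3c1 (66.2), the chloride channel protein Clic5 (61.7), neprilysin (Mme, 70.5) and Bmp7 (77.0) were under 100 on every input.

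**Figure D2:**
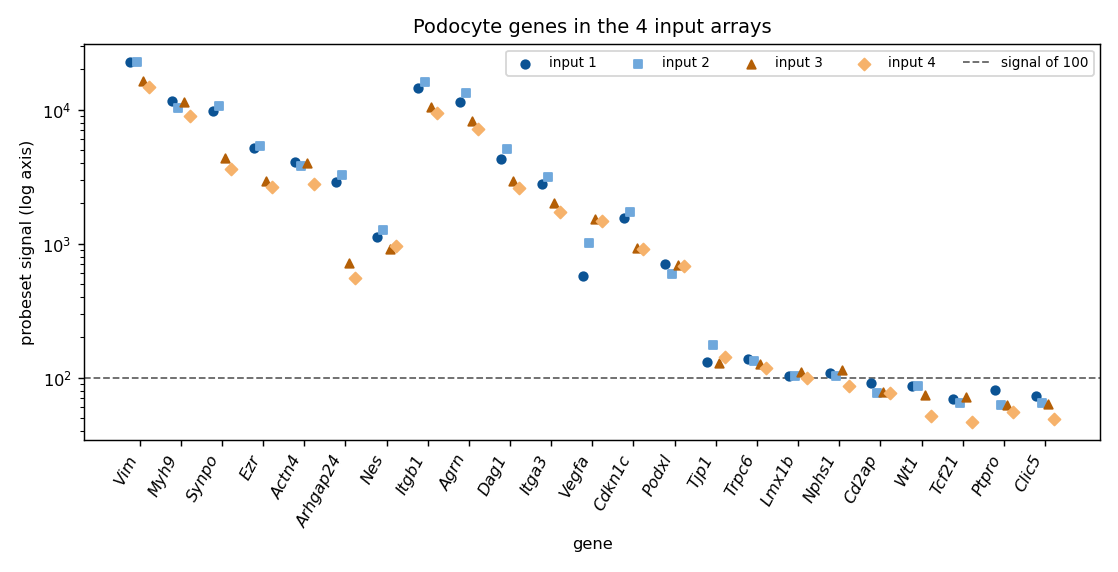
Signal (log axis) of 23 podocyte genes in inputs 1 to 4, one symbol per input, with the threshold of 100 dashed. Cytoskeletal and adhesion genes lie above the threshold on every input, and Synpo and Arhgap24 split into a higher pair (inputs 1 and 2) and a lower pair (inputs 3 and 4). Of the plotted transcription factors and genes from the slit diaphragm list, Podxl lies well above the threshold, and the others lie nearer to it or under it.

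Mesenchymal genes had a similar share above the threshold, with 28 of 43 (65.1%, against 45.8% of all genes). Its cytoskeletal members included the brightest. Calponin 3 (Cnn3, 10179, SD 0.15), transgelin 2 (Tagln2, 4509), filamin C (Flnc, 3531) and S100a4 (1590.3) accompanied Vim and S100a6. Smooth muscle actin (Acta2), the marker of contractile myofibroblasts and mesangial cells, gave 14992, 11019, 2802 and 2661, so that every value of inputs 1 and 2 was more than 3 times every value of inputs 3 and 4. Transgelin (Tagln), a smooth muscle actin-binding protein, was dimmer but moved the same way with 413, 275, 101 and 84.9. Tropomyosin 1 (Tpm1) gave 8906, 8614, 4409.5 and 3947 and calponin 2 (Cnn2) 2971, 2551, 1383 and 1263, again without overlap of inputs 1 and 2 with inputs 3 and 4. Desmin (Des, 94.3) and calponin 1 (Cnn1, 67.2), which mark smooth muscle and mesangial cells, did not pass the threshold.

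Of 12 mesenchymal transcription factors, 6 were above. Twist2 (1989, SD 0.35), Twist1 (820.4, SD 0.18), Zeb1 (1054, SD 0.15), Zeb2 (352), Tcf4 (1913, SD 0.28) and Prrx1 (279), all of which repress the epithelial or specify the mesenchymal state, differed by at most 1.64-fold between their highest and lowest input. Snai1 reached 100 on inputs 1 and 2 alone with 110.0, 103, 83.5 and 63.9. Among surface proteins the receptor tyrosine kinase Axl was the brightest (10970.4, SD 0.16), followed by the hyaluronan receptor Cd44 (1784) and the neural adhesion molecule Ncam1 (558). N-cadherin (Cdh2) gave 615, 523, 241 and 219 and Mcam, an adhesion molecule of vessels and smooth muscle, 539.6, 477, 159.9 and 145, and both were more than 2-fold higher in inputs 1 and 2 than in inputs 3 and 4. Both platelet-derived growth factor receptors were near the threshold (Pdgfrb 167, Pdgfra 109), and the fibroblast markers Thy1 (71.9), Fap (68.0) and Cdh11 (69.9) were under it.

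Of 52 epithelial genes, 13 were above the threshold (25.0%, against 45.8% of all genes). E-cadherin (Cdh1), the adhesion protein of most epithelia, gave 91.0, 81.8, 86.3 and 69.1, and occludin (Ocln, 70.6), claudin 3 (Cldn3, 68.1), claudin 7 (Cldn7, 52.7), the polarity protein Crb3 (77.6) and desmoplakin (Dsp, 55.1) were likewise under 100 on every input. The epithelial splicing regulator Esrp1 gave 80.2, 71.2, 59.4 and 46.9 and the epithelial transcription factor Grhl2 73.5, 78.3, 75.7 and 60.0. Of 8 keratins only Krt7 was above, with 352, 456, 271 and 246. Krt8 (73.5), Krt18 (90.7) and Krt19 (58.3), the keratins of simple epithelia, were not. A few epithelial genes stood out from this. Klf5, a zinc finger factor of epithelial progenitors, gave 2126, 2333, 4719 and 4109.9 and ran against the usual direction, higher in inputs 3 and 4. Plakoglobin (Jup) reached a mean of 707 (SD 0.50), the junctional adhesion molecule F11r one of 369 and the nephric lineage factor Pax8 one of 398. Kidney-specific cadherin (Cdh16), a tubular protein, gave 1095, 1662, 306 and 263. The count of this list depended on the threshold. At the other settings 27 of 52 genes passed at a signal of 80, Cdh1 and Krt18 among them, and 6 at 150. Of all 19406 genes, 11416 passed at 80 and 7245 at 150. Without input 3 the epithelial count was 20 and without input 4 it was 21, each with at least 2 of the 3 remaining inputs at 100. Over all genes these 2 settings gave 9433 and 9590.

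Defining genes of other kidney and blood cells were searched to see what else the cultures might hold. Of 53 such genes, 15 were above the threshold (28.3%, against 45.8% of all genes). The mesangial genes had the largest share, with 4 of 7 above (57.1%). These were Acta2, Pdgfrb, Gata3 and Cspg4, while Des was not above. The endothelial genes Pecam1 (78.9), Cdh5 (77.5), Tek (68.5) and Tie1 (61.8) and the leukocyte genes Ptprc (69.0), Itgam (66.2), Lyz2 (68.3) and Adgre1 (73.7) were under 100 on all 4 inputs. The vascular endothelial growth factor receptors Flt1 (255) and Kdr (200.3), the endothelial sialomucin Emcn (105) and the lipopolysaccharide receptor Cd14 (371) were exceptions. Proximal tubule genes were divided. The transporters Slc34a1 (63.1), Slc5a2 (77.4), Slc22a6 (68.8) and Slc22a8 (60.4) and the receptor Cubn (74.0) were dim, but the water channel Aqp1 gave 11829, 12405, 2269 and 2227 and the endocytic receptor megalin (Lrp2) 1055, 1204, 369.7 and 356. Both were more than 2-fold higher in inputs 1 and 2 than in inputs 3 and 4. A second probeset of Aqp1 split in the same way. Genes of the loop and distal nephron were above for 2 of 10, the sodium channel subunit Scnn1a (134) and the water channel Aqp3 (101), whereas Umod (63.5) and Aqp2 (82.7) were not. Of the parietal cell genes, the scaffold Akap12 alone exceeded 1000, with 4693, 4679.7, 1674 and 1448.

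Extracellular matrix genes were above the threshold for 62 of 95 (65.3%, against 45.8% of all genes). The share was highest for the enzymes that process and turn over matrix, with 25 of 28. It was lowest for glycoproteins and proteoglycans, with 14 of 30 (46.7%), which is near the share of all genes. Serpinh1, the collagen chaperone of the endoplasmic reticulum, gave 18776, 21221, 15410.2 and 15049, and the prolyl hydroxylase subunit P4hb gave 17586, 16418, 8915 and 7801. The lysyl hydroxylase Plod3 (5825), the crosslinking enzyme Loxl1 (6527) and the metalloproteinase inhibitors Timp1 (4464), Timp2 (7042) and Timp3 (3433) were also bright. Of these Timp1 was the steadiest, with 4582, 4463, 4677 and 4153. Among glycoproteins Igfbp7 (7525, SD 0.86), connective tissue growth factor (Ccn2, 4863, SD 0.68), the TGF-beta binding protein Ltbp3 (3969), Ccn1 (2101) and fibronectin (Fn1, 1755, SD 0.48) led. Postn (73.5), Eln (85.1), Vcan (84.5), Lum (62.1) and Vtn (68.3) stayed under 100 on every input.

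Collagens did not form one class. The basement membrane collagen Col18a1 reached 7062 (SD 0.53) and the chains Col5a1 (1303) and Col6a1 (1065), of fibrils and of beaded filaments, exceeded 1000. Col1a1, the larger part of type I collagen, gave 1436, 849, 469 and 416, while its partner chain Col1a2 gave 73.5, 68.5, 69.2 and 63.6 with its only probeset and Col3a1 gave 64.6, 64.8, 61.5 and 51.9. The 2 chains of the common type IV collagen were the brightest of that family and the most uneven. Col4a1 gave 6858, 7367, 1517 and 1429 and Col4a2 gave 13775, 15137, 3485 and 3039.7, and for both genes every value of inputs 1 and 2 was more than 3 times every value of inputs 3 and 4. Col4a1 and Col4a2 lie head to head on mouse chromosome 8, and their start sites in the RefSeq annotation are 21 bases apart on opposite strands. Their promoter windows, which run from 250 bases before to 50 bases after a start, share 78 bases at chr8:11312777-11312854 (GRCm38.p6, plus strand). Each of these bases lies within the 50 bases after the start of 1 gene or the other. The 2 genes had the same order of inputs, as had Itga3 and Itgb1. Whether the shared bases have a part in this order was not tested. They are printed below.
Col4a1 and Col4a2: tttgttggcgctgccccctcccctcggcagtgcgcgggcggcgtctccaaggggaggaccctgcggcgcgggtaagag

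**Figure D3:**
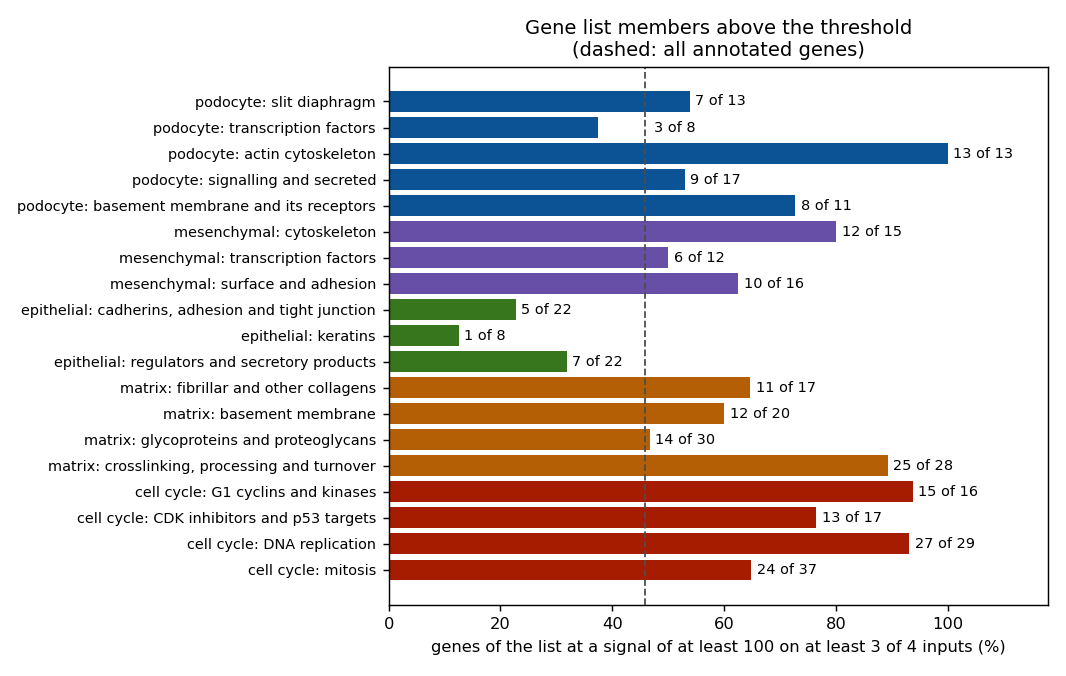
Share of the measured genes of each list, by role, that reached a signal of 100 on at least 3 of 4 inputs, with counts at the bars and the share over all annotated genes (45.8%) dashed. All 13 cytoskeletal podocyte genes passed, against 1 of 8 keratins and 5 of 22 genes of epithelial junctions. The lists were chosen with earlier results of these data known.

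Cell cycle genes were above the threshold for 79 of 99 (79.8%, against 45.8% of all genes). DNA replication genes were so for 27 of 29. The helicase subunits Mcm5 (11774, SD 0.23), Mcm4 (8295, SD 0.14), Mcm7 (4694), Mcm2 (3554), Mcm6 (3294) and Mcm3 (1062), which open the origins, all had mean signals above 1000. The licensing factor Cdt1 (3836), the flap endonuclease Fen1 (6091), ribonucleotide reductase (Rrm1 3202, Rrm2 1901) and thymidylate synthase (Tyms, 3336) did as well, while the sliding clamp Pcna gave 207, 300.3, 216 and 234.

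Genes of mitosis were above for 24 of 37. The centromeric histone Cenpa (12331, SD 0.23), the spindle protein Prc1 (6732), the kinase Plk1 (4002, SD 0.14) and survivin (Birc5, 3866, SD 0.39) were among the brightest. Cdc20, the activator of the anaphase-promoting complex, gave 4159, 3964, 3984 and 3708, and the mitotic kinase Cdk1 gave 3097, 3546, 3315 and 2968. The proliferation marker Mki67 gave 1369, 1159.9, 1069 and 1193 and topoisomerase II alpha (Top2a) 2587, 2366, 2247 and 1973, and the highest and lowest input differed by at most 1.31-fold for each. The probesets of Ccnb2 (61.8), Ube2c (90.4), Kif11 (68.9) and Espl1 (65.3) were nevertheless under 100 on every input, and that of the S and G2 cyclin Ccna2 reached it on input 2 alone.

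The G1 regulators Ccnd1 (8021, SD 0.30), Cdk4 (5518), Cdk6 (4591) and Cdk2 (4228) were also bright, and 15 of 16 genes of this group were above. Inhibitors of the cycle stood beside them. Cdkn1a, the p53-induced CDK inhibitor p21, gave 12578, 15409, 15116 and 12632, and the p53 targets Mdm2 (10862, SD 0.26) and Ccng1 (8969.6, SD 0.19) were of the same order, with input 2 the highest for both. The growth arrest gene Gadd45a gave 2332, 3272, 5855 and 5248, higher in inputs 3 and 4. The INK4 inhibitors Cdkn2c (2964), Cdkn2b (1938), Cdkn2d (687) and Cdkn2a (662) were all above, whereas Cdkn1b, the inhibitor p27 of quiescent cells, gave 73.5, 73.9, 72.5 and 53.3.

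Several response programmes had larger shares above the threshold than the 45.8% of all genes. Of 28 interferon response genes 23 were above, of 61 stress genes 53 (immediate early 18 of 19, heat shock 10 of 12, endoplasmic reticulum and amino acid 14 of 16, hypoxia and glycolysis 11 of 14), and of 17 genes of sterol and fatty acid synthesis 14. The class I histocompatibility genes B2m (25446) and H2-D1 (16714) and the immunoproteasome subunit Psmb8 (4913) were the brightest of the first list. The heat shock proteins Cryab (19492) and Hspb1 (12757) and the immediate early factor Egr1 (12611) stood high in the second. The inducible heat shock genes Hspa1a (64.4) and Hspa1b (76.0) were under 100 on every input. Of 24 cytokine and acute phase genes 12 were above, led by the chemokine Cxcl1 with 8555, 17836, 6714 and 5272, and the classical inflammatory genes Il6 (65.0), Il1b (68.4), Tnf (62.5) and Ptgs2 (71.9) were not. Of 11 common reference genes 10 were above, all but Actg1.

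The spread between the 4 inputs was small for most genes. The median SD over the 8880 genes above the threshold was 0.208 on the log2 scale, 95% of genes were under 0.573 and 99% under 0.935. When the 4 values of each gene were split at their largest gap, 1936 genes (21.8%) had inputs 1 and 2 on the upper side and inputs 3 and 4 on the lower, and 470 (5.29%) the reverse. These counts depend on the scaling of the arrays, because the median deviation of all genes above was 0.02, 0.15, 0.00 and -0.17 in inputs 1 to 4. With each array centred on its median they became 1077 and 1380, so that inputs 3 and 4 were more often the higher pair. After quantile normalization they were 1649 and 1698, which are nearly equal. Splits with a gap of at least 2-fold were 155 and 28 as deposited, 97 and 50 after centring and 112 and 57 after quantile normalization, and the first direction was the more frequent one under each scaling. Among the 30 most variable genes all 30 split between these pairs, 23 with inputs 1 and 2 higher and 7 with inputs 3 and 4 higher. Of the 30 most variable genes after median centring 16 and 14 split in these directions, and of those after quantile normalization 18 and 12. Among the 100 most variable genes 75 were of the first kind, 21 of the second and 4 had input 2 alone higher.

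**Figure D4:**
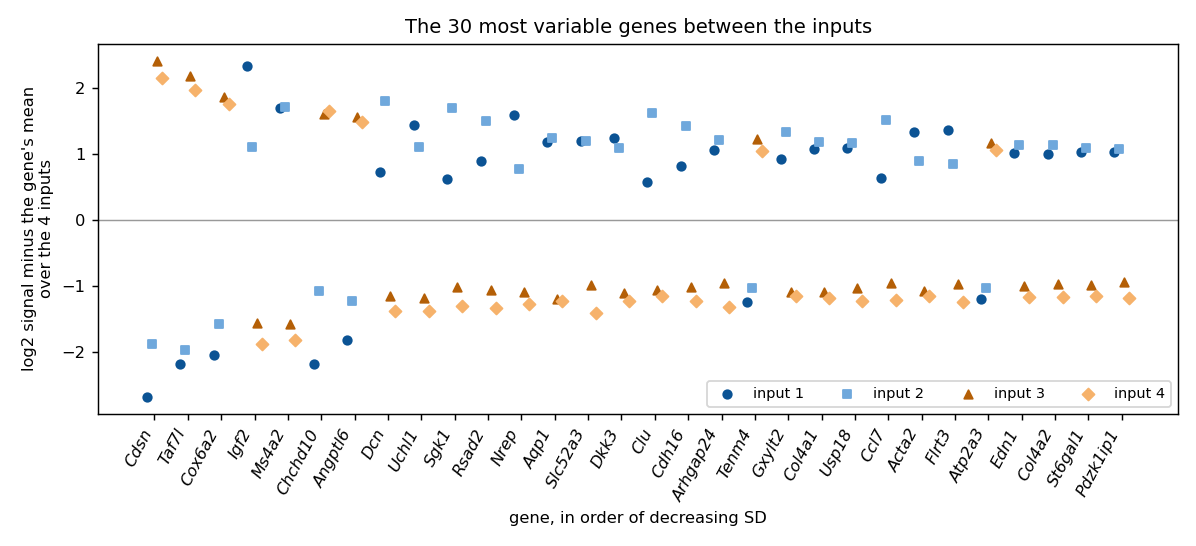
Log2 signal minus the mean of the gene over the 4 inputs, for the 30 genes of highest SD in order of decreasing SD, one symbol per input. Inputs 1 and 2 lie together on one side of the mean and inputs 3 and 4 on the other in every one of them.

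The 3 genes of highest SD were high in inputs 3 and 4. Corneodesmosin (Cdsn), an adhesion protein of the outer epidermis, gave 90.5, 158, 3125 and 2612. Taf7l, a testis-expressed subunit of a general transcription factor, gave 89.2, 102, 1836 and 1595, and Cox6a2, the heart and muscle isoform of a cytochrome c oxidase subunit, 618, 853, 9313 and 8658. The mitochondrial protein Chchd10 (401, 867, 5602 and 5762) and the secreted Angptl6 (463, 704, 4875 and 4598) had the same direction. For Cox6a2, Chchd10 and Angptl6, every value of inputs 3 and 4 was more than 5 times every value of inputs 1 and 2. The low values of Cdsn and Taf7l lie around the threshold, at the level of dim probesets, so that no ratio is read from them. Taf7l did not pass the threshold with median centring or quantile normalization, nor when all 4 inputs had to reach it. Tenm4, a teneurin of cell surfaces, and Atp2a3, a calcium pump, were the remaining genes of this direction among the 30, with 192, 221, 1066 and 937 and 138, 156, 722 and 669. Other Tenm4 probesets above the threshold gave 131.2, 156, 860.3 and 821.5, with the same split, and 131.8, 126, 144.9 and 113.5, without it. The other Atp2a3 probeset, under the threshold, gave 77.8, 72.4, 91.9 and 67.3, also without it.

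The growth factor Igf2 had the highest SD among genes of the opposite direction, with 1787, 758, 119.5 and 95.6, followed by Ms4a2, the beta chain of the high-affinity IgE receptor, with 1347, 1362, 139 and 117. Decorin (Dcn), a small proteoglycan that binds collagen, gave 467, 985, 127 and 108, so that input 2 was above input 1 and both far above inputs 3 and 4. Its 4 other probesets were below the threshold. The deubiquitinase Uchl1 gave 676, 535, 109 and 95.4 and the serum and glucocorticoid-induced kinase Sgk1 2252, 4786, 729 and 594. Another Sgk1 probeset above the threshold gave 229.4, 622.7, 115.5 and 93.9, with input 2 alone on the upper side. Clusterin (Clu), a secreted chaperone, gave 3802, 7871, 1222 and 1142, and Dkk3, a secreted relative of the Wnt inhibitors, 2581, 2324, 508 and 467. Nrep (7.29-fold between highest and lowest input), the riboflavin transporter Slc52a3 (6.15-fold), Gxylt2 (5.65-fold), the vasoconstrictor endothelin 1 (Edn1, 4.94-fold), Flrt3 (6.1-fold), the sialyltransferase St6gal1 (4.75-fold), Pdzk1ip1 (4.81-fold) and the chemokine Ccl7 (6.66-fold) shared this direction, as did Acta2, Aqp1, Arhgap24, Cdh16, Col4a1 and Col4a2, whose values are given above.

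Of the 62 matrix genes above the threshold, 41 (66.1%) had inputs 1 and 2 on the upper side, against 21.8% of all genes, and 2 had inputs 3 and 4 there. With median centring these counts were 37 and 3, against 12.1% and 15.5% of all genes. After quantile normalization they were 39 and 2, against 18.6% and 19.1% of all genes. The median deviation of the matrix genes, less that of all genes above, was 0.29 and 0.28 on the log2 scale in inputs 1 and 2 and -0.32 in both inputs 3 and 4. Next to the type IV chains, nidogen 2 (Nid2) gave 382, 815, 141 and 148, Col8a1 1485, 1897, 419.9 and 419 and tenascin C (Tnc) 1024, 925, 324 and 227. The TGF-beta-induced matrix protein Tgfbi gave 279, 466, 104 and 94.5. The collagen Col16a1 (4.49-fold), the plasminogen activator Plat (4.44-fold), the gelatinase Mmp2 (3.47-fold) and the crosslinking enzyme Lox (2.93-fold) had ranges of a similar size and the same direction. The laminin chains, in contrast, stayed within 1.26-fold for Lama5, 1.24-fold for Lamb2 and 1.35-fold for Lamc1. Mmp11 and Mmp23 were the 2 matrix genes that were higher in inputs 3 and 4, with 463, 457, 522 and 492 and 116, 109, 189 and 170.0.

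Among the cytoskeletal genes of the mesenchymal and podocyte lists, inputs 1 and 2 were on the upper side for 7 of 12 and 6 of 13, against 21.8% of all genes. These counts were 6 and 5 with median centring and 7 and 6 after quantile normalization. Over all genes the share was 12.1% and 18.6% under these settings. The CArG box, the binding motif of serum response factor, was found in the promoter windows of 1 of 14 of these mesenchymal genes (Cnn2) and of 1.81% of all 27025 genes with a window. The absence of a match says only that the letters are not in this window. Of the endothelial and leukocyte genes above the threshold, Flt1 (331, 323, 213 and 185) and Kdr (236, 239, 179 and 159) were also higher in inputs 1 and 2, and Cd14 (381, 562, 339 and 262) was highest in input 2, while Pecam1, Cdh5 and Ptprc stayed under 100 on every input. Their part in the split was not tested. The mesangial genes other than Acta2 did not share its split, since Cspg4 gave 232, 229, 229 and 209, Gata3 209.5, 202, 195 and 179 and Pdgfrb 163, 208, 159 and 144.

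**Figure D5:**
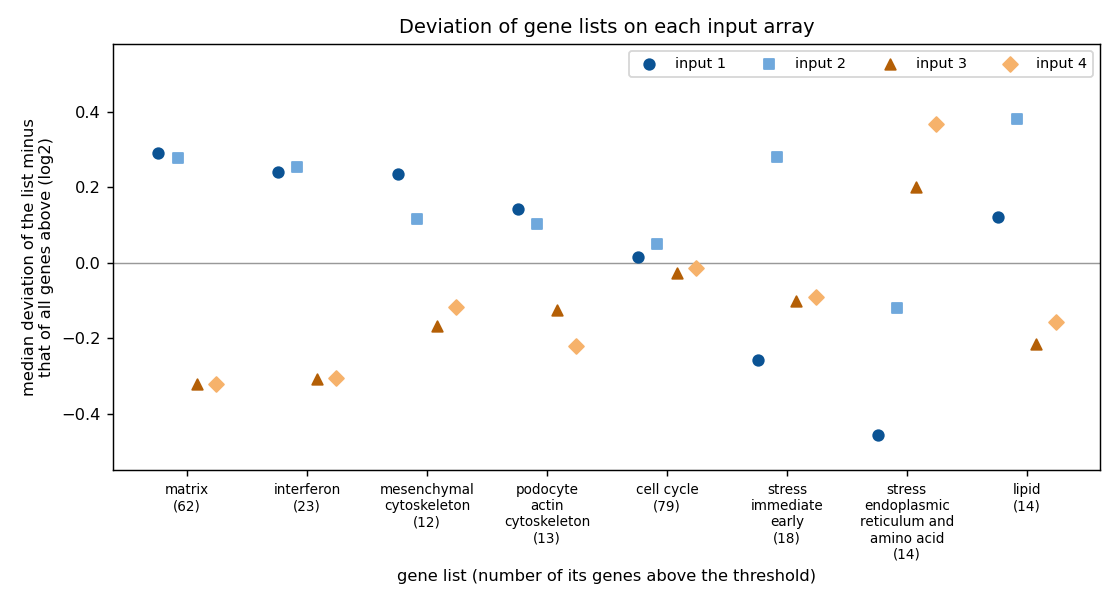
Median deviation from the gene means, less that of all genes above the threshold, for 8 gene lists on each input (log2 scale), one symbol per input, with the number of genes in brackets. Matrix and interferon genes lie 0.24 to 0.29 above zero in inputs 1 and 2 and 0.31 to 0.32 below it in inputs 3 and 4, the cell cycle list stays within 0.06 of zero, and the genes of the endoplasmic reticulum and amino acid list lie between -0.46 in input 1 and 0.37 in input 4.

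Interferon response genes formed another group with inputs 1 and 2 on the upper side, for 13 of 23 genes (56.5%), against 21.8% of all genes. Another 7 had input 2 alone there, as had 1810 of the 8880 genes above. The counts with inputs 1 and 2 higher were 12 with median centring and 15 after quantile normalization, against 12.1% and 18.6% of all genes. Rsad2 (viperin), an antiviral enzyme, gave 814, 1234, 210.1 and 173, and Usp18, which removes the ubiquitin-like Isg15 from proteins, gave 1594, 1683, 368 and 319.6, and both of these belong to the 30 most variable genes and not to the list. Isg15 itself gave 5414, 4314, 2403 and 2378. The interferon gamma-induced GTPases Irgm1 and Igtp, which act against intracellular pathogens, gave 2809.9, 2770.4, 1097 and 1011 and 2041, 1959, 847 and 769. For both, every value of inputs 1 and 2 was more than 2 times every value of inputs 3 and 4. The transcription factors Irf7 (2.23-fold between highest and lowest input) and Irf9 (2.05-fold), the GTPase Gbp3 (2.09-fold) and the receptor chain Ifngr1 (2.3-fold) had the same split. B2m, the light chain of class I molecules, gave 24811, 26991, 25759 and 24306 and stayed within 1.11-fold. Cd74, the invariant chain of class II molecules, was the 1 member with the reverse order and gave 109, 115, 450.0 and 425. Ifit2 and Ifit3 were highest in input 2 alone, with 1513, 3012, 1329 and 1252 and 343, 566, 239 and 182. Cxcl10 (69.5) and Ifit1 (60.6) were under 100 on every input.

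The core of the interferon-stimulated response element, which STAT and IRF factors bind, was searched on both strands of the promoter windows of RefSeq (GRCm38.p6) as GAAA, any 2 bases and GAAA. It was found in 11 of 24 interferon response genes with a window and in 3.44% of all 32851 windows (3.99% of genes). Among the genes above the threshold it was in 8 of 21. The carriers included Isg15, Igtp, Irgm1 and Gbp3, which were higher in inputs 1 and 2. They also included B2m, which was steady, Ifit3, highest in input 2 alone, and Cxcl10 and Ifit1, under 100 on every input. Whether the core has a part in the split was not tested. The stretch around the core is shown for 3 interferon-induced genes named above whose values were higher in inputs 1 and 2, with the cores in capitals. The run of capitals in Isg15 holds 3 overlapping cores. They lie at chr4:156200863-156200920 (minus strand), chr12:26456539-26456596 (minus strand) and chr11:58199498-58199555 (plus strand) and are written 5′ to 3′ along the gene. A match is a description of the sequence and not of binding.
Isg15: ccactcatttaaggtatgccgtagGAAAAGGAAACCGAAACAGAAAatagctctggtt
Rsad2: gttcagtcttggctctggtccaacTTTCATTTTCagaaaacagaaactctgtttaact
Igtp: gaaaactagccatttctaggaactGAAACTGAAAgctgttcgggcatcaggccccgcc

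Of the 14 genes above in the list of endoplasmic reticulum and amino acid genes, 5 had inputs 3 and 4 on the upper side (35.7%, against 5.29% of all genes), 2 had inputs 1 and 2 there and 3 had input 2 alone. With median centring the first 2 counts were 6 and 1, against 15.5% and 12.1% of all genes. After quantile normalization they were 7 and 2, against 19.1% and 18.6% of all genes. Trib3, a pseudokinase that curbs the response, gave 308, 458, 1524 and 1226, and the cystine transporter Slc7a11 gave 168, 242, 669.8 and 646. Chac1, which degrades glutathione, gave 3381, 5859.6, 11524 and 10261, and asparagine synthetase (Asns) 2755, 3709, 5198 and 5142. In each of these 4 genes both values of inputs 3 and 4 exceeded both of inputs 1 and 2, and input 1 was the lowest. The factors Atf4 (1403, 1880.2, 2643 and 2451) and Ddit3 (4413, 7484, 10774 and 9906), which drive and extend the response, had input 1 as the lowest and inputs 3 and 4 as the highest. Pdia4, a protein disulfide isomerase of the endoplasmic reticulum, gave 2537, 2631, 1295 and 897 in the reverse order. The chaperones Hspa5 (238, 399, 229 and 207) and Hsp90b1 (5111, 7339, 3604 and 3685) were highest in input 2.

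The C/EBP-ATF response element, at which ATF4 is known to act, was searched as TGATGNAA on both strands of the same windows. It was in the windows of 5 of 15 genes of this list and in 3.97% of all windows (4.51% of genes). The 4 split genes named above were among these 5, and Herpud1, whose stretch is not printed, was the other. The 4 were picked from the genes with inputs 3 and 4 on the upper side. Whether the element has a part in this split was not tested. The stretches of the 4 are printed with the element in capitals, at chr2:152344015-152344070 (minus strand), chr2:119351025-119351080 (plus strand), chr6:7693201-7693256 (minus strand) and chr3:50443648-50443703 (minus strand).
Trib3: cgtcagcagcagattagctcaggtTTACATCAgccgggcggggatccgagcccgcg
Chac1: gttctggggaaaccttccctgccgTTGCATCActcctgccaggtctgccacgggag
Asns: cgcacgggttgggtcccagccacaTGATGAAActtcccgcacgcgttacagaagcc
Slc7a11: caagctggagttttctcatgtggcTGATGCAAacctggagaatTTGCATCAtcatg

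In Slc7a11 the element is on both strands within the stretch. In Trib3 it lies 15 bases after the annotated start site, and in Asns, Slc7a11 and Chac1 it begins 23, 66 and 193 bases before it.

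Immediate early genes, which respond within minutes to serum or handling, varied along another line. Input 2 alone was on the upper side for 9 of 18, against 1810 of the 8880 genes above. With median centring it was so for 9 of 18, against 1801 of the 8880. After quantile normalization it was so for 5 of 18, against 793 of the 8880. Fos gave 2100.2, 8459.8, 2959.6 and 2639 and Fosb 177, 833, 327 and 288, so that input 2 was more than 2 times each other input. Atf3 (919.9, 2114, 965 and 805) and the phosphatase Dusp1 (14008, 20978, 9391 and 8284) had the same order at the top. Egr1 gave 9508, 15511, 13578 and 12629, with input 1 the lowest. Of the 14 sterol and fatty acid synthesis genes above, 7 had inputs 1 and 2 on the upper side (against 21.8% of all genes), and 5 had input 2 alone. The first count was 4 with median centring and 6 after quantile normalization, against 12.1% and 18.6% of all genes. The median deviation of these 14 genes less that of all genes was 0.38 in input 2. The desaturase Scd1 gave 1324, 2174, 718 and 558 and the sterol demethylase Cyp51 2602, 4146, 2264 and 2119. Cxcl1 peaked there too, at 17836 against 8555 or less.

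The median deviation of the cell cycle list less that of all genes stayed between -0.03 and 0.05 in the 4 inputs, and 22 of 79 had inputs 1 and 2 on the upper side (27.8%, against 21.8% of all genes), with no gap as large as 2-fold in either direction. With median centring this count was 8 (10.1%, against 12.1% of all genes) and after quantile normalization 15 (19%, against 18.6%). Inputs 3 and 4 were on the upper side for 3, 9 and 8 as deposited and under these settings. Over all genes these shares were 5.29%, 15.5% and 19.1%. Ribosomal protein genes deviated by -0.13 and -0.05 in inputs 1 and 2 and by 0.14 and 0.06 in inputs 3 and 4 before any subtraction, and histone genes by 0.51, 0.13, -0.23 and -0.40. The genes of lowest SD with a mean signal of at least 1000 were Mfn1, a mitofusin that joins mitochondria, with 2262, 2270.0, 2252 and 2291, the nonsense-mediated decay factor Upf2 with 2049.6, 2051, 2098 and 2062 and the chromatin protein Psip1 with 1978, 1996, 1957 and 2007. Mrpl1, Eif2b1, Utp11, Pop5, Sec13, Cox5b and Atp5j2, of mitochondrial and cytosolic translation, ribosomal and transfer RNA processing, vesicle transport and the respiratory chain, completed the 10 steadiest, with ranges of at most 1.05-fold.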

How the data were processed

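Input RNA was amplified, biotin-labelled and hybridised to Illumina mouse bead arrays, with 1 array per input extract. The values were log2 signals, deposited by the authors in the series matrix. BeadStudio and Partek 6.4 are named in the submitters' processing notes, with a normalization between arrays not given in the sources used here. In all, 24 columns of per-sample values in the other tables match no sample's label and were not used. Of 46643 probesets, 32794 had 1 gene symbol in GEO's platform annotation (updated through Entrez identifiers), 55 had several and 13794 had none. Each gene was read at its probeset of highest mean log2 signal, and a gene was above at a signal of 100 on 3 or 4 arrays. For 3644 of 8202 genes with several probesets, these disagreed about the threshold. With 1 group there was no test and no p-value, and 4 arrays limit the precision of every SD.

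The genes named are the 6 markers, members of 11 lists (520 of 563 genes matched), the 30 brightest, the 30 of highest SD above the threshold and the 10 of lowest SD with a mean signal of at least 1000. Members and lists were chosen with earlier results of these data known. Promoter windows came from RefSeq (GRCm38.p6). Threshold, number of arrays, scaling, filter, pseudocount and single arrays were varied. Computations used Python 3.11.15, numpy 2.4.6 and pandas 2.3.3 and were tested on simulated data, and matplotlib 3.10.9 drew the figures.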

Additional observations from a re-analysis of the deposited data

Results flagged for a closer look

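For each of the 286 genes named, the highest and the lowest of the 4 inputs were compared with the remaining 3, and a value was singled out where its gap to the nearest input was larger than Dixon's critical share of the whole range for 4 samples. Chance singles out about 1 in 20 groups of 4, and 6 genes were found. Input 4 was the low one in 5 of them. Cdkn1b, the CDK inhibitor p27, had a signal of 53.3 there against 72.5 to 73.9 in the others, and the podocyte transcription factor Foxc1 had 39.5 against 61.1 to 61.3. The endothelial receptor Tie1 had 43.7 against 68.2 to 71.0, the phosphate transporter Slc34a1 had 49.3 against 66.9 to 70.7, and the proteoglycan Cspg4 had 208.7 against 228.8 to 232.5. All but Cspg4 lie below the threshold, where input 4 was also the lowest array for 93.1% of the genes under 100 on every input. The nephrin adaptor Cd2ap was the exception, with 91.6 in input 1 against 76.1 to 78.4.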

How the results depend on the processing

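No paired analysis was possible because no result comes from a test and the inputs form 1 group. The 8880 genes above the threshold were 11416 at a signal of 80, 7245 at 150 and 6554 at 200, and between 8942 and 9590 with 1 input left out and at least 2 of the remaining 3 at 100. The 14472 probesets were 9406 at 200. In the alternatives chosen after seeing the data, inputs 1 and 2 alone gave 9386 genes and inputs 3 and 4 alone 8295. Of the gene lists, the epithelial one moved from 13 genes to 27 at a signal of 80, 6 at 150 and at 200, 21 on at least 2 inputs, and 13 to 21 with 1 input left out. The inflammation list went from 12 to 7 at 150 and 6 at 200, and the list of other cell types from 15 to 24 at 80 and 8 at 200. At least 29 of the 30 brightest genes were shared with 1 input left out. Of the 30 most variable genes, 21 to 23 were shared with 1 input left out and 19 with a filter of 200 on all 4 inputs. Genes with inputs 1 and 2 higher numbered 3482 without a filter and 1077 with median centring. Genes with inputs 3 and 4 higher numbered 1380 with median centring and 1698 after quantile normalization, and among the 30 most variable they were 14 and 12. The normalization of the deposited values is unknown, so which scaling is nearest to the RNA was not tested. Genes near a signal of 100 cannot be placed on either side with 4 arrays.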
